A study of Homo sapiens with 6 samples.

Results

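Fatty acid transport and acyl-CoA synthetase genes were followed in LNCaP cells with and without Gα13 overexpression. The members are SLC27A1, SLC27A3, SLC27A4 and SLC27A5 of the fatty acid transport protein family, and ACSL1, ACSL3, ACSL4 and ACSL5 of the long-chain acyl-CoA synthetase family, chosen by gene symbol. Of these 8 genes, 7 had a row among the 17297 gene symbols analysed. ACSL5 was not analysed here. LNCaP, a human prostate cancer line with relatively low Gα13, was transduced with the empty pBabe vector (pBabe-vector) or with pBabe carrying wild-type GNA13 cDNA (pBabe-GNA13), and transduced cells were kept in puromycin. Both lines were seeded in RPMI with 10% FBS and harvested after 48 h, with 3 cultures per line. Each condition is a single stable line, so the 3 cultures are replicates of that line. The p-values of the fits rest on the spread between cultures, estimated for each gene in part from other genes. They do not cover the spread between independently made lines. The measurement is RNA-seq read counts per gene, given here as CPM, counts scaled to a common library size after TMM normalization.

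Free long-chain fatty acids have to be activated to acyl-CoA before a cell can oxidise them, store them as triacylglycerol or build them into membranes. Acyl-CoA synthetases of the ACSL family carry out this ATP-dependent step on intracellular membranes, and the isozymes differ in location and in the fatty acids they prefer. SLC27A proteins, also called FATPs, promote uptake of fatty acids and hold acyl-CoA synthetase activity of their own. Prostate cancer cells are known for active fatty acid synthesis and lipid storage, and both families feed the pool of acyl-CoA on which lipid storage depends.

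The start sites of 4 members show how differently these genes are built at the promoter. The 3 ACSL genes are shown because the fit with the pairs as a block, described later, called all of them, and SLC27A5 because its groups of libraries did not overlap. Each sequence, from RefSeq on GRCh38.p14, runs from 250 bases before to 50 bases after the start site, 5′ to 3′ on the gene's strand. Capitals mark GC boxes (GGGCGG or CCGCCC) and CCAAT boxes (CCAAT or ATTGG), searched on both strands with overlapping matches counted. ACSL1 lies at chr4:184825919-184826218 (minus strand), ACSL3 at chr2:222860786-222861085 (plus strand), ACSL4 at chrX:109733208-109733507 (minus strand) and SLC27A5 at chr19:58511943-58512242 (minus strand). For ACSL1, which has 5 promoters in RefSeq, the promoter at the start of the canonical transcript is shown.
ACSL1: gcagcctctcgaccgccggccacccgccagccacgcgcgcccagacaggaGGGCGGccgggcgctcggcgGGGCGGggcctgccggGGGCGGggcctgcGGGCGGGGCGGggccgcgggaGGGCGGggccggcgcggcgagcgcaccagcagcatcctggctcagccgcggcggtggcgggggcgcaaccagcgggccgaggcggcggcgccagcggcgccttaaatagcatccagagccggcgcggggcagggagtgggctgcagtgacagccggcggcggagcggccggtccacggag
ACSL3: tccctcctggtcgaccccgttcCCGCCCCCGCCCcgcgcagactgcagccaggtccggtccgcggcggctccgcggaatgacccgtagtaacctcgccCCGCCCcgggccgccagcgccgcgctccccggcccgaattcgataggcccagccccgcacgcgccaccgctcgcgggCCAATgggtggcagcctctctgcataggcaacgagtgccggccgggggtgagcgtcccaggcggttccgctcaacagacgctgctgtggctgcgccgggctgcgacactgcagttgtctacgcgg
ACSL4: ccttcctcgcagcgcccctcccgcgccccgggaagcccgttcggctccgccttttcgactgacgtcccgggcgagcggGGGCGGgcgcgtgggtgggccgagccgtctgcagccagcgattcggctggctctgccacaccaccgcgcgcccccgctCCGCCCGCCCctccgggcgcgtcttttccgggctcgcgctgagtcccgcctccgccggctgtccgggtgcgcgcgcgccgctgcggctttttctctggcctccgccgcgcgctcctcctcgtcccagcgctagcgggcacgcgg
SLC27A5: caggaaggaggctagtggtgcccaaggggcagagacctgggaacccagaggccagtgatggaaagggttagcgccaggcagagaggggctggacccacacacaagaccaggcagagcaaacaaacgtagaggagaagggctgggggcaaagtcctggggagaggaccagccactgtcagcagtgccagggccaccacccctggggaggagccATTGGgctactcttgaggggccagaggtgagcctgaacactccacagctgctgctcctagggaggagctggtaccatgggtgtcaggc

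The ACSL1 window held 6 GC boxes and no CCAAT box, the ACSL3 window 3 GC boxes and 1 CCAAT box, and the ACSL4 window 3 GC boxes and no CCAAT box. The SLC27A5 window held no GC box and 1 CCAAT box. CpG dinucleotides numbered 47 in ACSL1, 41 in ACSL3 and 51 in ACSL4, against 2 in SLC27A5. The windows of SLC27A1, SLC27A3 and SLC27A4, not shown, held 5, 4 and 2 GC boxes and 31, 26 and 38 CpG dinucleotides. SLC27A5 therefore does not stand for its family in this. A GC box stood in 64.5% and a CCAAT box in 34.3% of the 16031 RefSeq promoters of genes in the table. None of the 7 members had a TATA box (TATAAA, 6.49% of promoters), an E-box (CACGTG, 9.06%) or an androgen receptor half-site (TGTTCT, 9.95%) in this window. The core of a cAMP response element (TGACGT, 10.0% of promoters) occurred once, in ACSL4. These matches describe the letters of the windows and say nothing of binding.

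The 6 libraries held 33002160 to 40628970 counts, so that 1 read equals 0.0238 to 0.0312 CPM. GNA13 rose from 65.4 to 76.7 CPM in pBabe-vector to 747 to 886 CPM in pBabe-GNA13 (log2 fold change 3.54, standard error 0.12, adjusted p = 9.12e-05 in edgeR). Luminal prostate markers were present, all 10 of 10, with means of 179.9 to 2954 CPM. Of 22 markers of basal, stromal, endothelial, blood, fat and liver cells, 9 had a row, and their summed CPM was 4.49 to 8.26 against 2.38 to 2.48 for basal, 17.3 to 24.8 against 11.6 to 23.5 for stromal, 14.6 to 30.5 against 6.54 to 20.6 for endothelial (VWF) and 0.0588 to 4.24 against 0.0886 to 0.858 for liver markers (ALB), pBabe-GNA13 first. With the pairs as a block (explained next), 5 of these 9 were called as higher in pBabe-GNA13 (KRT5, KRT14, COL1A2, VWF and ALB) and 0 as lower. Over all genes the block gave 9.32% as higher and 10.4% as lower. Of the luminal markers, KLK2, KLK3, KRT8 and KRT18 were also called as higher with the block, and the others were not called. No blood or fat cell marker was analysed, and the part of other cells in the results was not tested. In bulk RNA, fewer cells with a transcript and less transcript per cell cannot be told apart. Column headings name the libraries by a replicate number, and 1 in each line also by the tag std. The std library of pBabe-GNA13 bears the number 2 as well and was placed by its tag. Its Pearson's r with replicate 2 of pBabe-vector was −0.064 across genes. Libraries placed together in this way deviated together (r of 0.603 to 0.841). They were taken as the std pair, the replicate 2 pair and the replicate 3 pair.

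ACSL1 and ACSL3 dominated the acyl-CoA synthetases of LNCaP cells, and SLC27A4 and SLC27A5 led the transport proteins. To compare genes, CPM was divided by the length of the canonical transcript in kilobases. On this scale the mean level over the 6 libraries was 134 CPM per kb for ACSL1, 70.3 for ACSL3, 14.8 for SLC27A4, 13.1 for SLC27A5, 5.82 for SLC27A1, 4.36 for SLC27A3 and 0.244 for ACSL4. ACSL1 ranged from 82.8 to 228 CPM per kb and ACSL3 from 55.3 to 83.4, so their ranges met, although ACSL1 was the higher of them within each library. SLC27A4 (12.6 to 17.3 CPM per kb) and SLC27A5 (11.9 to 14.1) were not separated by their spread, nor were SLC27A1 (3.59 to 7.54) and SLC27A3 (3.78 to 5.27). ACSL4, the isozyme that favours arachidonic acid and other polyunsaturated fatty acids, was the lowest member, at 0.143 to 0.435 CPM per kb. Dividing by all annotated exons in place of the canonical transcript kept the order of the 7 members, but brought SLC27A5 from 13.1 to 3.75 CPM per kb, which put it below the non-member SLC27A2 (8.54) rather than above it.

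Between the lines, none of the 7 members was called at an adjusted p under 0.05 in the fit without the pairs (edgeR's quasi-likelihood test, Benjamini-Hochberg over all genes), in which 0.139% of all genes were called, 0.116% as higher and 0.0231% as lower. At an unadjusted p under 0.05 there was 1 member, ACSL4, against 8.46% of all genes. DESeq2 called 0 members and 1.77% of the genes it tested. With the pairs as a block, 4 members were called, in both directions: ACSL1 and ACSL4 lower in pBabe-GNA13, ACSL3 and SLC27A1 higher. That fit called 19.7% of all genes, 9.32% as higher and 10.4% as lower. The median log2 fold change of the 7 members was 0.11 without the block and 0.12 with it, against −0.0013 and −0.0026 for all genes. With the block and each chromosome brought to its own median, the median of the members was −0.0055. All 3 pairs went in a single direction for 6 of the 7 members, 3 higher and 3 lower, as they did for 48% of all genes.

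How many members were called with the block depended on the tool. The block leaves 2 residual degrees of freedom per gene, and edgeR's quasi-likelihood fit added 24.3 prior degrees of freedom from the other genes. The newer quasi-likelihood method of edgeR called 3 members (ACSL1, ACSL3 and ACSL4; 18.1% of all genes), DESeq2 with the block 1 (ACSL3; 13.1% of the genes it tested) and limma-trend with the block 0 (2.5% of all genes; lowest adjusted p among the members 0.0536, for ACSL3). These 3 fits were added after the values had been seen. In edgeR, leaving out a pair left 4 members called without the std pair (18.9% of all genes), 2 without the replicate 2 pair (14.7%) and 2 without the replicate 3 pair (13%). A fit with a pair left out has fewer residual degrees of freedom still, so it cannot show how the pairs spread. Bringing each chromosome to its own median left 3 members, ACSL3 as higher (6.53% of all genes) and ACSL1 and ACSL4 as lower (7.53%).

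**Figure D1:**
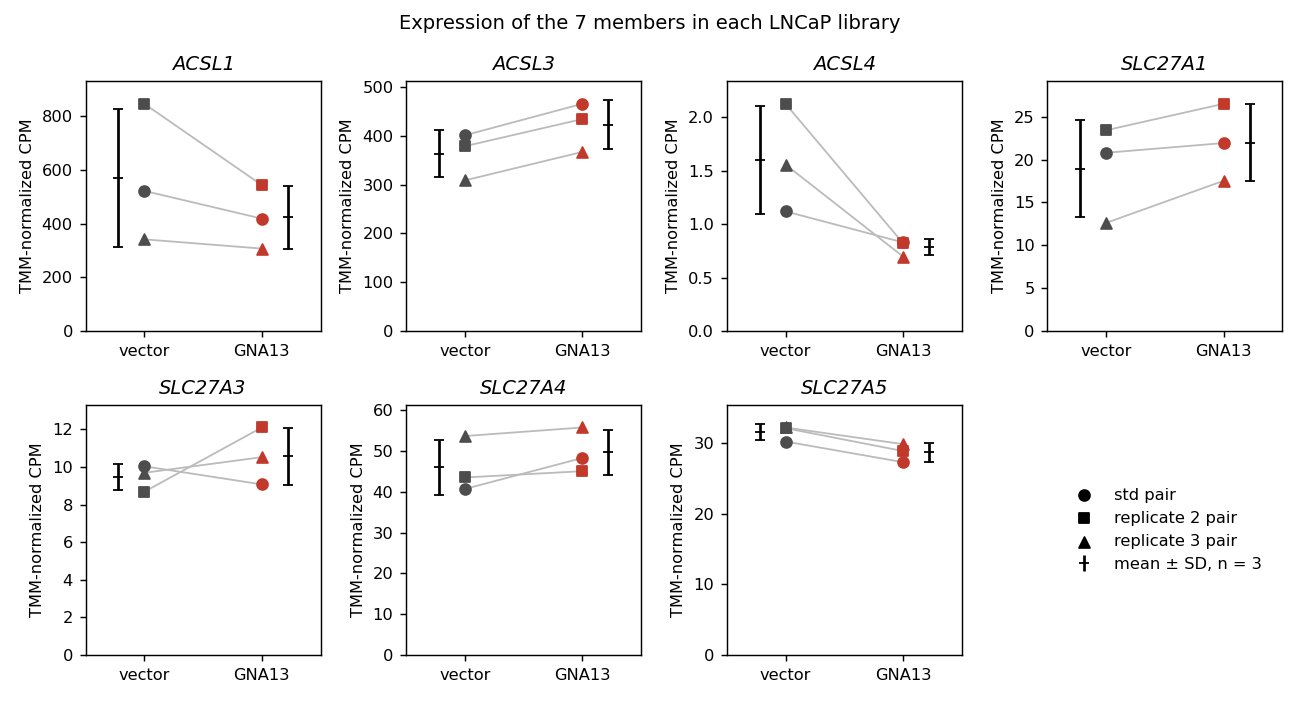
TMM-normalized CPM (linear axis from 0) of each of the 7 members in pBabe-vector (grey) and pBabe-GNA13 (red). Symbols mark the 3 pairs, grey lines join the libraries of a pair, and black bars give the mean ± SD of 3 libraries. ACSL3 is higher and SLC27A5 lower by a similar amount in every pair, ACSL1 spans 342 to 846 CPM within pBabe-vector alone, and the ACSL4 groups do not overlap.

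ACSL1, which supplies acyl-CoA for both oxidation and triacylglycerol synthesis, lies on chromosome 4 from 184755595 to 184826818 (Gencode 44, minus strand). By mean CPM it was the most abundant member. In pBabe-vector its level was 522 CPM (std), 846 CPM (replicate 2) and 342 CPM (replicate 3), and in pBabe-GNA13 it was 419, 544 and 307 CPM in the same order. Each pBabe-GNA13 library lay below its partner, but the groups overlapped, since the replicate 3 library of pBabe-vector lay below the std and replicate 2 libraries of pBabe-GNA13. The means were 423 ± 118 CPM against 570 ± 256 CPM (SD, n = 3 each). Without the block the log2 fold change was −0.43 (adjusted p = 0.871 in edgeR, standard error 0.33; exact permutation test, two-sided, p = 0.50). The 95% confidence interval of this difference ran from −1.21 to 0.35.

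With the block, ACSL1 fell by 0.37 on the log2 scale (adjusted p = 7.79e-05 in edgeR, standard error 0.06), that is to 0.773 of the pBabe-vector level. The 3 pairs gave ratios of 0.802 (std), 0.642 (replicate 2) and 0.899 (replicate 3). Their log2 differences had a standard error of 0.14, more than the 0.06 of the moderated fit. The blocked call was also made with each pair left out. The adjusted p in edgeR was then 1.27e-09 without the std pair, 0.000836 without replicate 2 and 1.10e-09 without replicate 3. Leaving out the std or replicate 3 pair thus gave a smaller p than all 3 pairs, so these refits do not measure the spread between pairs. The call was made with chromosomes centred too (log2 fold change −0.33, adjusted p = 0.000414 in edgeR). It was not made by DESeq2 with the block (adjusted p = 0.0533) or by limma-trend with the block (adjusted p = 0.147). Without replicate 2 of pBabe-vector, the library with the highest ACSL1 level, the difference in the fit without the block was −0.03.

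ACSL3, an isozyme of the endoplasmic reticulum and lipid droplets that is known to respond to androgen, lies on chromosome 2 from 222860942 to 222944639 (plus strand). Its level was 401 CPM (std), 378 CPM (replicate 2) and 309 CPM (replicate 3) in pBabe-vector, and 465, 434 and 367 CPM in pBabe-GNA13. Replicate 3 was the lowest library of both lines. The groups overlapped, at 422 ± 50.3 CPM against 363 ± 48.1 CPM (SD, n = 3 each). Without the block the log2 fold change was 0.22 (adjusted p = 0.802 in edgeR, standard error 0.14; exact permutation test, p = 0.30).

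The ratio of ACSL3 between the lines was 1.16 (std), 1.15 (replicate 2) and 1.19 (replicate 3), with an SD of the log2 difference of only 0.03. With the block ACSL3 rose by 0.22 on the log2 scale (adjusted p = 0.00169 in edgeR, standard error 0.05, and 0.000400 in DESeq2). The call was also made with each pair left out (adjusted p at most 0.0199 in edgeR). The 766 genes of chromosome 2 with a mean of at least 1 CPM had a median log2 fold change of 0.07, and with chromosomes centred ACSL3 stood at 0.14 on the log2 scale (adjusted p = 0.0379 in edgeR with the block). The limma-trend fit with the block gave an adjusted p of 0.0536.

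ACSL1 and ACSL3 thus had opposite signs, and the balance between these isozymes was examined as the ratio of their read counts in each library. This measure was chosen after the values had been seen, and no scaling of the libraries can change it. ACSL1 gave 1.303 reads (std), 2.24 reads (replicate 2) and 1.11 reads (replicate 3) per ACSL3 read in pBabe-vector. In pBabe-GNA13 the values were 0.900, 1.25 and 0.838. The ratio was lower in pBabe-GNA13 in 3 of 3 pairs, by factors of 0.691, 0.560 and 0.756. Since ACSL1 was lower and ACSL3 higher in each pair, this direction was already fixed and adds no evidence. The groups overlapped, with means of 0.997 ± 0.224 against 1.55 ± 0.603 (SD, n = 3 each; exact permutation test, two-sided, p = 0.20, where 0.10 is the smallest that 3 against 3 libraries allow). Counted per kilobase among ACSL1, ACSL3, ACSL4 and ACSL6, ACSL1 made up 62.3% to 76.9% of the family in pBabe-vector and 55.6% to 65.2% in pBabe-GNA13.

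**Figure D2:**
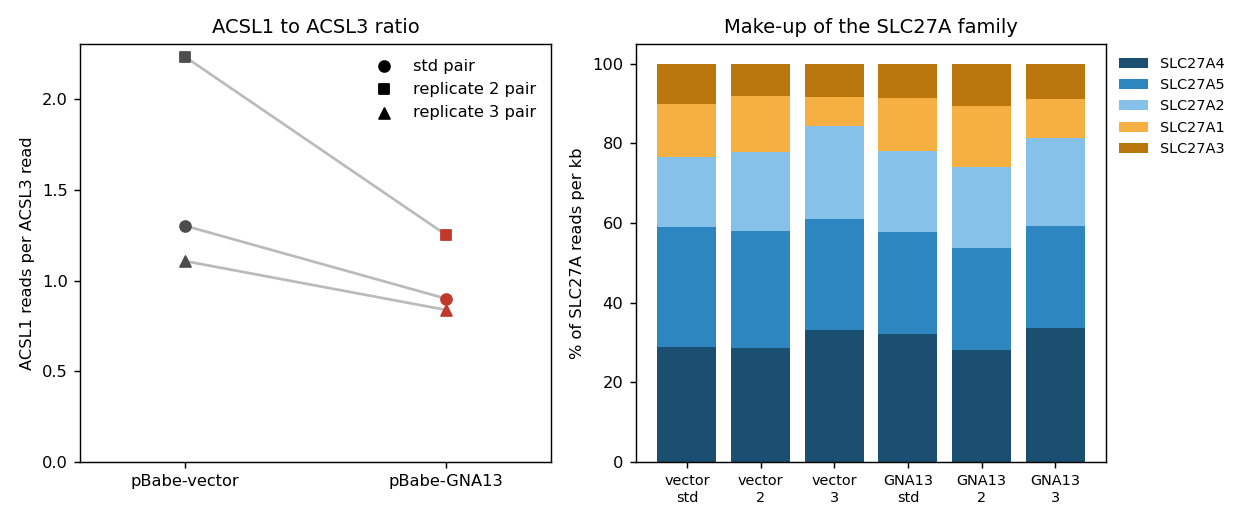
Left, reads of ACSL1 per read of ACSL3 in each library (linear axis from 0), with grey lines joining the libraries of a pair. Right, share in % of each SLC27A gene in the family's reads per kilobase, a stacked bar per library. The ACSL1 to ACSL3 ratio drops along all 3 lines, a direction already fixed by the separate values of ACSL1 and ACSL3. The SLC27A5 share is 25.4% to 25.6% in pBabe-GNA13 and 28.0% to 30.1% in pBabe-vector.

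ACSL4, whose product channels polyunsaturated fatty acids into phospholipids and is known for its role in ferroptosis, lies on chromosome X from 109624244 to 109733403 (minus strand). It was the member with the fewest reads, 24 to 72 per library, so counting error weighs more on it than on the others. Its level was 1.12 CPM (std), 2.13 CPM (replicate 2) and 1.56 CPM (replicate 3) in pBabe-vector and 0.830, 0.823 and 0.698 CPM in pBabe-GNA13. Every pBabe-GNA13 library lay below every pBabe-vector library, and the pBabe-vector libraries spread by a factor of 1.90. The means were 0.783 ± 0.0743 CPM against 1.60 ± 0.504 CPM (SD, n = 3 each; exact permutation test, p = 0.10, the smallest possible).

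The log2 fold change of ACSL4 was −1.02 (standard error 0.30, 95% confidence interval −1.72 to −0.32), with an unadjusted p of 0.0102 and an adjusted p in edgeR of 0.373. With the block ACSL4 fell by 0.99 on the log2 scale (adjusted p = 0.00856 in edgeR, standard error 0.27), or to 0.503 of the pBabe-vector level. The 3 pairs gave 0.753 (std), 0.403 (replicate 2) and 0.467 (replicate 3). This call was lost without the replicate 2 pair (adjusted p = 0.103 in edgeR) and without the replicate 3 pair (0.0578). DESeq2 (0.0959) and limma-trend (0.118) with the block did not make it. The annotated exons of ACSL4 share 78 bases with KCNE5 on the same strand.

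**Figure D3:**
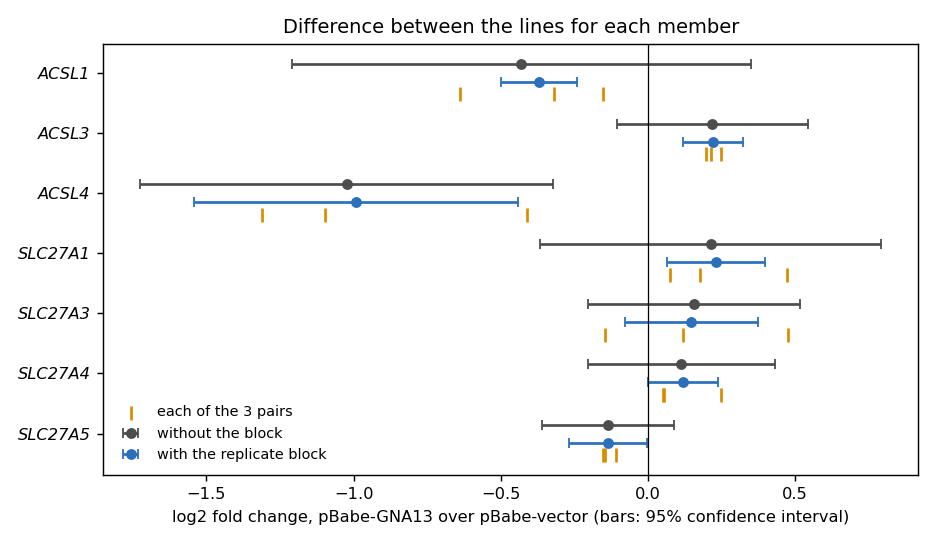
Log2 fold change of pBabe-GNA13 over pBabe-vector for each member, with 95% confidence intervals, in the edgeR fit without the block (grey) and with the replicate block (blue). Orange ticks are the 3 pairs. Without the block only the ACSL4 interval excludes 0, and at least 1 tick lies outside the blocked interval for ACSL1, ACSL4, SLC27A1, SLC27A3 and SLC27A4, but none for ACSL3 and SLC27A5.

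Among the transport proteins, SLC27A1 (FATP1), best known from muscle and fat, lies on chromosome 19 from 17468769 to 17506168 (plus strand). Its level was 20.8 CPM (std), 23.4 CPM (replicate 2) and 12.6 CPM (replicate 3) in pBabe-vector and 21.9, 26.5 and 17.5 CPM in pBabe-GNA13. It was higher in pBabe-GNA13 in 3 of 3 pairs, by ratios of 1.05, 1.13 and 1.39, and the groups overlapped. The log2 fold change was 0.21 (adjusted p = 0.933 in edgeR, standard error 0.25), and with the block 0.23 (adjusted p = 0.0450 in edgeR, standard error 0.08). The blocked call was lost without the replicate 3 pair (adjusted p = 0.436 in edgeR), without the replicate 2 pair (0.0700), with chromosomes centred (0.0566) and in each of the other tools. In the fit without the block, leaving out replicate 3 of pBabe-vector brought the difference to −0.0075.

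SLC27A3, which acts mainly as an acyl-CoA synthetase, lies on chromosome 1 from 153774354 to 153780157 (plus strand). The study labels it in a plot of mitochondrial genes with values from GNA13 knockdown in PC3, its other cell line. Those genes were drawn from genes regulated in both lines, so the direction of SLC27A3 here is not independent evidence. It was measured at 10.0 CPM (std), 8.68 CPM (replicate 2) and 9.69 CPM (replicate 3) in pBabe-vector and at 9.07, 12.1 and 10.5 CPM in pBabe-GNA13. The std pair went the opposite way to the other pairs, and the groups overlapped. The log2 fold change was 0.16 (95% confidence interval −0.20 to 0.52; adjusted p = 0.910 in edgeR, or 0.399 with the block). Without the replicate 2 pair, the blocked difference was −0.020. Its exons share 455 bases, or 8.32%, with those of INTS3 on the same strand.

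SLC27A4 (FATP4), a transporter of gut and skin that was the leading SLC27A gene here, lies on chromosome 9 from 128340527 to 128361470 (plus strand). Its level was 40.7 CPM (std), 43.5 CPM (replicate 2) and 53.7 CPM (replicate 3) in pBabe-vector and 48.3, 45.1 and 55.8 CPM in pBabe-GNA13. The groups overlapped, and replicate 3 was the highest library of both lines. The log2 fold change was 0.11 (adjusted p = 0.939 in edgeR, standard error 0.14, or 0.165 with the block). The 498 genes of chromosome 9 with a mean of at least 1 CPM had a median log2 fold change of 0.12, and with each chromosome centred SLC27A4 stood at −0.0055.

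SLC27A5, which in liver joins bile acids to CoA, lies on chromosome 19 from 58479512 to 58512413 (minus strand). It was the steadiest member, at 30.3 CPM (std), 32.2 CPM (replicate 2) and 32.3 CPM (replicate 3) in pBabe-vector and 27.3, 28.9 and 29.9 CPM in pBabe-GNA13. Every pBabe-GNA13 library lay below every pBabe-vector library (exact permutation test, p = 0.10), and the pair ratios were 0.903, 0.899 and 0.927. The log2 fold change was −0.14 (adjusted p = 0.839 in edgeR, standard error 0.10), and with the block it was also −0.14 (adjusted p = 0.148 in edgeR). SLC27A5 therefore did not pass in either fit, although its 3 pair differences had an SD of only 0.02. ACSL4 and SLC27A5 were the 2 of 7 members whose groups did not overlap, as in 14.1% of all genes. Exons of SLC27A5 share 1131 bases (14.1%) with ZNF446 on the opposite strand, and whether counting used strand is not given in the sources used here.

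Of the other genes of the families, SLC27A2, a very long-chain acyl-CoA synthetase of peroxisomes, was measured at 18.5 to 28.2 CPM in pBabe-vector and 22.6 to 27.2 CPM in pBabe-GNA13 (log2 fold change 0.10, adjusted p = 0.976 in edgeR, or 0.326 with the block). ACSL6, known from brain, was near the floor with 12 to 29 reads per library. Its level was 0.334 to 0.443 CPM in pBabe-vector and 0.509 to 0.843 CPM in pBabe-GNA13, with no overlap (log2 fold change 0.77, adjusted p = 0.604 in edgeR, or 0.193 with the block). SLC27A6 was not analysed here.

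For 4 of the 7 members a larger share of the variation lay between pairs of cultures than between the lines. The part between pairs has more degrees of freedom than the part between lines, which favours it in such shares. The sum of squares of log2 CPM over the 6 libraries was split into a part between pairs, a part between lines and the rest. Between pairs lay 81.0% of it for ACSL1, 81.6% for SLC27A1, 78.7% for SLC27A4 and 65.5% for ACSL3 (34.2% between lines). For ACSL4 and SLC27A5 the larger part, 75.4% and 66.9%, lay between the lines. SLC27A3 had neither, with 68.2% in the rest. The medians of the 7 members were 65.5% between pairs and 23.7% between lines, beside 70.2% and 12.6% over the 14059 genes with a mean of at least 1 CPM. Within pBabe-vector, the highest library exceeded the lowest by a factor of 2.48 for ACSL1 and 1.07 for SLC27A5.

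**Figure D4:**
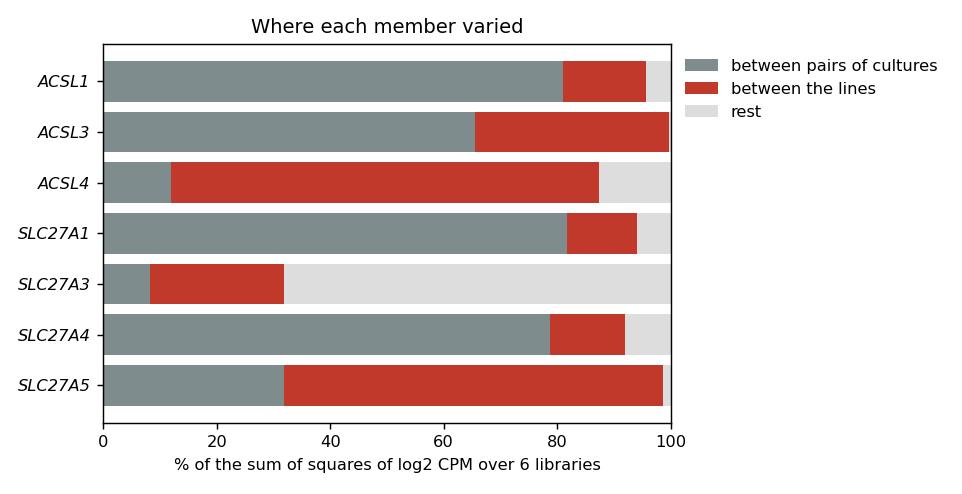
Share in % of the sum of squares of log2 CPM over the 6 libraries that lies between pairs of cultures (grey), between the lines (red) and in the rest (light grey), for each member. ACSL1, ACSL3, SLC27A1 and SLC27A4 have their larger part between pairs, ACSL4 and SLC27A5 between the lines. Shares are not divided by degrees of freedom, of which the part between pairs has more.

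Replicate 3 stood at an extreme for several members at once. In both lines it had the lowest ACSL1, ACSL3 and SLC27A1 and the highest SLC27A4. Over the 6 libraries, log2 CPM of ACSL1 had a Pearson's r of 0.69 with SLC27A1, −0.82 with SLC27A4 and 0.31 with ACSL3. Among genes with a mean of at least 1 CPM, the profiles most like that of ACSL1, the member with the smallest p in the blocked fit, were FKBP2 (r = 0.998), IFI6 (r = 0.995) and GRAMD1A (r = 0.995). These coefficients describe 6 libraries that share pair and line, and carry no test.

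The other genes of fatty acid uptake, activation and use were taken from 12 lists, the remaining genes of both families included, with 105 of 136 genes analysed. Without the block 0 of the 105 were called by edgeR (0.139% of all genes), and 11 had an unadjusted p under 0.05 (8.46% of all genes). DESeq2 called 2, FITM2 and ELOVL7, and 1.77% of the genes it tested. The median log2 fold change was 0.0051. With the block edgeR called 31 (29.5%, beside 19.7% of all genes), 11 higher (10.5%, beside 9.32%) and 20 lower (19.0%, beside 10.4%) in pBabe-GNA13. With chromosomes centred, 22 were called (21.0%, beside 14.1% of all genes), 8 higher (7.62%, beside 6.53%) and 14 lower (13.3%, beside 7.53%). DESeq2 with the block called 18 of the 105, beside 13.1% of all the genes it tested. Blocked limma-trend called 4 of the 105 (ELOVL7, SCD5, FITM2 and ABCD3), beside 2.5% of all genes.

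Genes of fatty acid synthesis, elongation and desaturation held the largest number of calls, 9 of 16 with the block, of which 7 were lower (ACLY, SCD, FADS1, FADS2, ELOVL1, ELOVL2 and ELOVL7) and 2 higher (ACACB and SCD5). The block called 19.7% of all genes, 9.32% as higher and 10.4% as lower. Whether the list differs from these shares was not tested. Blocked DESeq2 called ACACB, SCD5, FADS1, ELOVL2 and ELOVL7 of this list, and blocked limma-trend SCD5 and ELOVL7. The median log2 fold change of the list was −0.16. With chromosomes centred the list had 7 calls, 6 lower and 1 higher, beside 14.1%, 7.53% and 6.53% of all genes. ACACB (0.15 on the log2 scale, adjusted p = 0.243 in edgeR), on chromosome 12, and ACLY (−0.11, 0.129) were then no longer called. ELOVL7, an elongase of saturated long-chain acyl-CoA, was measured at 171, 162 and 103 CPM in pBabe-vector and at 98.4, 82.1 and 67.9 CPM in pBabe-GNA13 (std, replicate 2 and replicate 3). These groups did not overlap (log2 fold change −0.81, standard error 0.22, adjusted p = 0.327 in edgeR, or 1.48e-10 with the block). SCD5, a stearoyl-CoA desaturase, went the other way, from 31.0, 46.8 and 22.6 CPM to 50.9, 71.3 and 43.96 CPM (log2 fold change 0.73, adjusted p = 0.523 in edgeR, or 1.22e-09 with the block). FASN and ACACA, the core of fatty acid synthesis, were not called, with log2 fold changes of −0.07 and 0.04 with the block (adjusted p = 0.443 and 0.673 in edgeR).

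For the remaining lists, log2 fold changes are those of the edgeR fit with the block, in which 19.7% of all genes were called, 9.32% as higher and 10.4% as lower. The difference of a single list from that share was not tested. Of the 8 genes of the carnitine shuttle, which brings acyl groups into mitochondria, 4 were called with the block, CPT2 higher (log2 fold change 0.22, adjusted p = 0.00520 in edgeR with the block) and CPT1A, CPT1C and CRAT lower (CPT1C −0.60, adjusted p = 0.00836 in edgeR with the block). CPT1A was not called with chromosomes centred. The peroxisomal importer of acyl-CoA ABCD3 was lower (−0.26, adjusted p = 0.000487 in edgeR with the block). The acyl-CoA thioesterases, which reverse the activation step, gave 3 calls of 10, ACOT8 lower (−0.41, adjusted p = 0.000246 in edgeR with the block) and ACOT2 and THEM4 higher (ACOT2 0.23, 0.00600). ACOT8 lies on chromosome 20, whose median was −0.21, and with chromosomes centred it stood at −0.21 and was not called (adjusted p = 0.0714 in edgeR). Of 6 acyl-CoA binding proteins, ACBD7 alone was called, as lower (−0.59, adjusted p = 0.00116 in edgeR with the block), and ACBD4 was not (−0.23, 0.0518).

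Other acyl-CoA synthetases gave 3 calls of 8 with the block. The cytosolic acetyl-CoA synthetase ACSS2 was lower (log2 fold change −0.43, adjusted p = 1.61e-06 in edgeR with the block), and its mitochondrial relative ACSS1 was higher (0.46, 0.000265). AACS, on chromosome 12, was the remaining call (0.23, adjusted p = 0.00195 in edgeR), and with chromosomes centred it stood at −0.06 and was not called (adjusted p = 0.490 in edgeR). Both ACSS genes lie on chromosome 20, with its median of −0.21. With chromosomes centred both were still called, ACSS2 at −0.23 (adjusted p = 0.00482 in edgeR) and ACSS1 at 0.66 (5.96e-06). In lipid droplets and lipolysis 2 of 13 were called with the block, FITM2 (−0.53, adjusted p = 9.96e-08 in edgeR), which also lies on chromosome 20, and the triacylglycerol lipase PNPLA2 (−0.27, 0.000929). Both were still called with chromosomes centred, FITM2 at −0.33 (adjusted p = 0.000205 in edgeR) and PNPLA2 at −0.22 (0.00914).

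Glycerolipid synthesis had 2 of 13 with the block, LPIN3 (log2 fold change −0.29, adjusted p = 0.00903 in edgeR) and DGAT1 (−0.18, 0.0337), and neither was called with chromosomes centred, where LPIN1 was. In phospholipid reacylation, LPCAT3, which places polyunsaturated acyl groups in phospholipids, was higher with the block (0.36, adjusted p = 0.000116 in edgeR). LPCAT3 lies on chromosome 12, whose median was 0.30, and with chromosomes centred it stood at 0.07 on the log2 scale (adjusted p = 0.539 in edgeR). LPCAT1 was also higher (0.22, 0.00335 with the block), and LPCAT4 lower, a call that was not made with chromosomes centred (adjusted p = 0.0941 in edgeR). Of the 11 fatty acid-sensing transcription factors and their partners, NR1H2 alone was called (0.16, adjusted p = 0.0355 in edgeR with the block), and PPARG, at a mean of 2.68 CPM, was not (0.46, 0.0726). Of the 7 genes of fatty acid uptake and binding analysed, GOT2 alone reached a mean of 1 CPM (log2 fold change −0.13, adjusted p = 0.0949 in edgeR with the block), and the 1 call was CAV1, at a mean of 0.249 CPM.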

How the data were processed

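For 6 LNCaP libraries, 3 per line, RNA was sequenced with paired ends of 150 nucleotides. Read quality was checked by the authors with FastQC 0.11.7, STAR served for mapping against Gencode 38 transcripts, and featureCounts for summing per gene. Deposited values are raw counts for each symbol, although the study describes log2 CPM. No value was fractional, and 0 columns were left out.

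After TMM scaling, edgeR 4.0.16 under R 4.3.3 (glmQLFit, then glmQLFTest) tested the counts without a filter, the line as the only term and Benjamini-Hochberg adjustment over 17297 genes. Calls are at an adjusted p under 0.05. CPM are TMM-normalized, and log2 CPM used a prior count of 2. Intervals and floors cover counting error and the spread of these libraries only. Symbols were matched to Gencode 44 (14479 genes, 706 by an older symbol) for position and length. Centring brought each chromosome with at least 20 genes of a mean of at least 1 CPM to its median in each library.

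Pairs came from the number or the tag std in the headings. The heading of the pBabe-GNA13 library with the tag std also carries the number 2, which makes its number unclear, and it was paired by its tag. Deviations from the line means correlated at 0.603 (std), 0.729 (replicate 2) and 0.841 (replicate 3) within pairs and −0.692 to 0.0579 across pairs over 14059 genes. The pair was therefore fitted as a block beside the fit without it.

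Alternatives were RLE scaling, filterByExpr, DESeq2 1.42.0, limma-trend (limma 3.58.1), leaving out each library or pair, centred chromosomes and a threshold of 0.01. The edgeR fits with and without the block were tested on simulated data that held no differences between pairs. That test cannot show how the block behaves with the pair differences of these libraries. The genes named are all members, the other genes of both families, GNA13, list genes called without the block, and the 2 genes per list with the smallest blocked p at a mean of at least 1 CPM. FASN, ACACA, AACS and all genes named outside this rule were chosen after their values were seen. Members and lists were chosen with earlier results of these data known. Python 3.11.15, NumPy 2.4.6, pandas 2.3.3 and matplotlib 3.10.9 were used for summaries, exact permutation tests and figures. The result of 1 list gene that the rule names is not reported here.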

Additional observations from a re-analysis of the deposited data

How the results depend on the processing

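No member was called in any of the 10 alternatives without the replicate block, which are RLE scaling, filterByExpr, DESeq2, limma-trend and each library left out. With the replicate block the number of members called was 4 (edgeR), 3 with chromosomes centred, 3 with edgeR's newer method, 1 with DESeq2 and 0 with limma-trend, and 2 to 4 with a pair left out. Pathway genes called were 0 without the block, 2 with DESeq2, 31 with the block, 22 with chromosomes centred, 26 with the newer method, 18 with blocked DESeq2, 4 with blocked limma-trend, and 23 to 29 with a pair left out. Over all genes the count was 24 without the block, 280 with DESeq2, 5 with limma-trend, 2 at an adjusted p under 0.01 and 2 to 15 with a library left out. With the block it was 3407, with chromosomes centred 2432, with the newer method 3129, with blocked DESeq2 1988, with blocked limma-trend 433, and with a pair left out 2250 to 3266 (2550 without the replicate 2 pair). Signs turned in 3 of 126 values of the members: SLC27A1 without replicate 3 of pBabe-vector (−0.0075, in a range up to 0.39 with other libraries left out), SLC27A3 with the block and without the replicate 2 pair (−0.020), and SLC27A4 with the block and chromosomes centred (−0.0055). The cause was not tested. ACSL4 rests on few reads, 24 to 72 per library.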
